A study of Mus musculus with 6 samples.

Results

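The 10 genes described here are read as markers or regulators of the switch between epithelial and mesenchymal cell states, and they are 10 of 22359 protein-coding genes in the mouse annotation. They were taken by name. *Cdh1*, *Epcam* and *Esrp1* stand for the epithelial state, *Cdh2* and *Vim* for the mesenchymal state, and *Zeb1*, *Zeb2*, *Snai1*, *Snai2* and *Twist1* are the transcription factors that drive the switch. For each gene, every ATAC-seq peak that overlapped the gene body or the 10 kb on either side of it was counted. A peak within 1 kb of the start of any protein-coding transcript of the gene was called a start-site peak. In ATAC-seq, the Tn5 transposase inserts adapters into accessible DNA, so a peak marks open chromatin and not transcription. RNA was not analysed here.

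The samples came from 3 cell lines of different *Pax6* activity, each profiled in duplicate, in a study of how chromatin around *Pax6* folds. Pax6-HIGH cells (β-TC3) are a mouse insulinoma line. Pax6-ON cells (MV+) are a line that was derived from lens epithelia in culture, taken from a wild-type C57BL6 mouse. Pax6-OFF cells (RAG) are a renal adenocarcinoma line from BALB/c mice. The paper describes all 3 lines as immortalized. None was treated, and the study's methods say that the sex was unknown and that the lines had not been authenticated. Nuclei were released with 0.2% NP40 for Pax6-ON cells and with 0.1% NP40 for the others, so this step and the cell line cannot be told apart. Both replicates of a line were pooled in 1 peak call, so no value has a replicate error, no difference between lines could be tested, and a line stands for 1 sample.

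In the classical picture, epithelial cells are held together by E-cadherin (*Cdh1*), which is replaced by N-cadherin (*Cdh2*) when cells turn mesenchymal. The Snail (*Snai1*, *Snai2*) and ZEB (*Zeb1*, *Zeb2*) factors are repressors that bind E-box sequences at epithelial genes, while *Twist1* is a basic helix-loop-helix factor. The miR-200 microRNAs and the ZEB factors repress each other. N-cadherin is also found in neurons and β cells, and lens epithelial cells carry both N-cadherin and the intermediate filament vimentin (*Vim*), so these genes are not read as markers of one state in every tissue.

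The lines are called HIGH, ON and OFF cells from here on. Their calls used 100254099, 130955836 and 102223606 fragments and held 28024, 9821 and 14022 peaks, in this order. The pileup of a peak is the number of fragments over its summit, and no peak was called below 25, 30 and 25 fragments. A gene without a peak is therefore one where no pileup passed the call, which is not evidence of closed chromatin. Pileups are not scaled for depth, so many are given here with a rank, the percent of peaks of the same file with a lower pileup. Those given without a rank are not to be compared between lines. Ranks of lists of such different length are not on one scale either. The 95% limits beside a pileup are exact Poisson limits, and those beside a rank are the ranks of these limits. They cover counting error only, because both replicates were pooled in 1 call. The peak caller was set to remove no duplicate fragments, and whether they had been removed before is unclear. Any that remained are not independent counts, so the limits may be too narrow even for this error. Of 10 β cell marker genes, 6 had a start-site peak in HIGH cells, and *Ins1*, *Ins2*, *Pdx1* and *Iapp* had none in any line. Of the same genes, 3 had one in ON and 1 in OFF cells. Of 9 lens marker genes, *Pax6*, *Maf* and *Prox1* had one in ON and also in HIGH cells. In OFF cells 2 of the 9 had one, and *Maf* was among them, so it had one in all 3 lines. The crystallin genes *Cryaa* and *Cryba1* had none in any line, and *Cryab* had one in OFF cells alone. Of 10 kidney marker genes, 3 had one in OFF, 1 in ON and 1 in HIGH cells, and *Pax8* and *Lrp2* had none. *Emx2* was among them in both OFF and ON cells. The share in the matching line was 60.0%, 33.3% and 30.0%. Among all protein-coding genes it was 45.9% in HIGH, 21.2% in ON and 35.7% in OFF cells, so the kidney share was below that of all genes. The lens share was 33.3% in HIGH cells too. Over lists this short, nothing is read from the distance to these values.

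The 10 genes together had 19 peaks, 14 in HIGH, 3 in ON and 2 in OFF cells. In HIGH cells, 4 genes had a start-site peak (*Cdh2*, *Zeb1*, *Zeb2* and *Snai2*). In ON cells there were 3 (*Vim*, *Snai2* and *Twist1*), and in OFF cells there was 1 (*Vim*). Among all protein-coding genes, 45.9% had a start-site peak in HIGH, 21.2% in ON and 35.7% in OFF cells. The members' shares were 40.0%, 30.0% and 10.0%, the last of them 1 gene, and over 10 genes nothing is read from their distance to these values. With each line cut to its 9821 peaks of lowest q-value, the count was 2 in HIGH and still 3 in ON cells. The order of these lines thus depends on the number of peaks called, and the share of all genes under this cut was not computed. Counting any peak of the gene body or its flanks, 5, 3 and 2 genes had at least 1, where the background was 61.6%, 30.6% and 48.9%. The members' regions were longer than usual, with a median length of 55.0 kb against 35.4 kb over all genes.

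No member had a start-site peak in all 3 lines, a pattern of 3873 of the 22359 protein-coding genes. Nor did any have one in HIGH and OFF cells but not ON cells (3433 genes), or in OFF cells only (559 genes). With so few members, nothing is read from the absence of these patterns. *Cdh2*, *Zeb1* and *Zeb2* had a start-site peak in HIGH cells only, a pattern shared by 10.9% of all genes. *Twist1* had one in ON cells only, as did 1.06% of all genes. *Snai2* had one in HIGH and ON cells, as did 2.27%. *Vim* had one in ON and OFF cells, a pattern of 122 genes or 0.546%. The other members, *Cdh1*, *Epcam*, *Esrp1* and *Snai1*, had a start-site peak in no line, like 50.0% of all genes.

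**Figure D1:**
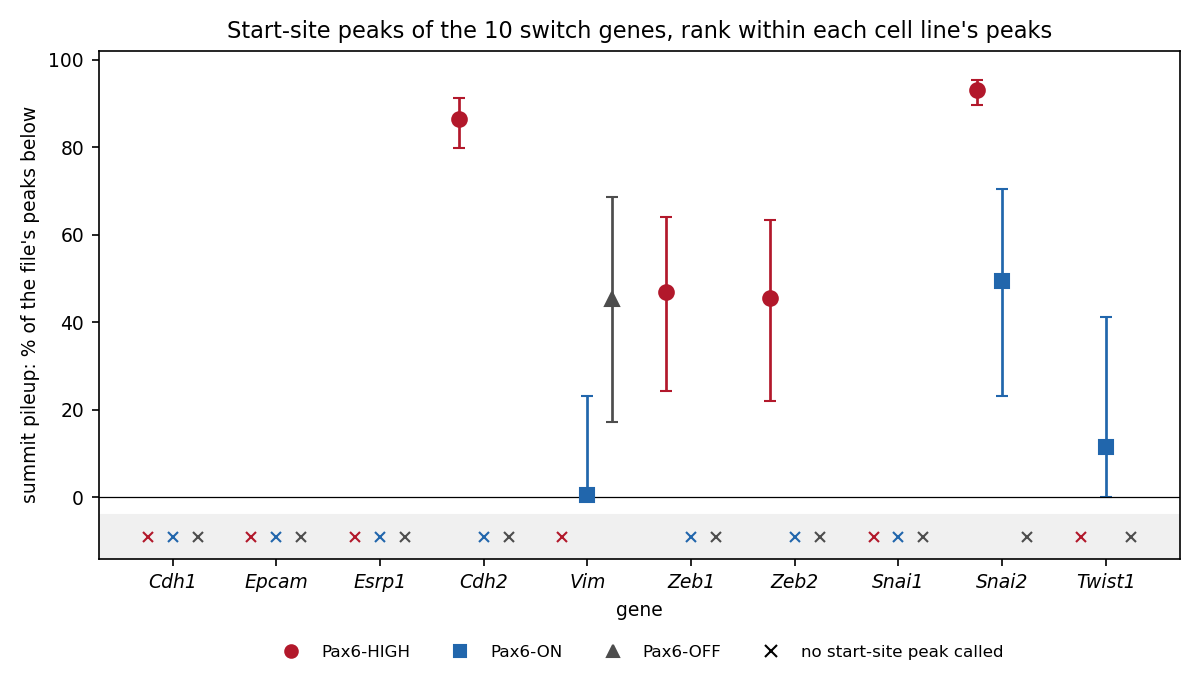
Rank of the start-site peak of each switch gene (percent of the peaks of the same line with a lower summit pileup) in HIGH, ON and OFF cells; bars are the ranks of the 95% Poisson limits of the pileup, the higher peak is drawn where a gene had more than 1, and crosses mark genes with no start-site peak. *Snai2* and *Cdh2* in HIGH cells lie at 93.0 and 86.5, while *Vim* in ON cells lies at 0.621.

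Sequences at 4 start-site peaks are shown because these were called in some lines and not in others, with every CG dinucleotide in capitals, since CpG-rich starts are those most often open in many cell types. All are on the plus strand of mm9. For *Snai2* and *Vim*, which were called in more than 1 line, they are the 300 bases before the annotated start (chr16:14705645-14705944 and chr2:13495254-13495553). The *Vim* stretch ends before both summits and begins ahead of the ON peak. For *Twist1* and *Zeb2*, which were called in 1 line, they are the 300 bases around the summit (chr12:34642076-34642375 and chr2:44965041-44965340).
Snai2: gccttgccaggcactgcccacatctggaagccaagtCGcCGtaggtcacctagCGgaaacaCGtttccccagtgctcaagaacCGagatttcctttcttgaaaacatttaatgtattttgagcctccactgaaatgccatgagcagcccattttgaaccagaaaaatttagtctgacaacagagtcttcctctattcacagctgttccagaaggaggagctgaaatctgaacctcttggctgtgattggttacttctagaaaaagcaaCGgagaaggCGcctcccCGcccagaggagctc
Vim: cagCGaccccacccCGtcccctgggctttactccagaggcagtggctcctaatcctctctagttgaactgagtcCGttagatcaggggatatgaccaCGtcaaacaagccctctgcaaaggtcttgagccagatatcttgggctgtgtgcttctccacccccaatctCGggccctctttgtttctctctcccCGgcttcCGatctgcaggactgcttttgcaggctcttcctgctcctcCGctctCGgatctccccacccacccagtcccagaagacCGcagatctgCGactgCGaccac
Twist1: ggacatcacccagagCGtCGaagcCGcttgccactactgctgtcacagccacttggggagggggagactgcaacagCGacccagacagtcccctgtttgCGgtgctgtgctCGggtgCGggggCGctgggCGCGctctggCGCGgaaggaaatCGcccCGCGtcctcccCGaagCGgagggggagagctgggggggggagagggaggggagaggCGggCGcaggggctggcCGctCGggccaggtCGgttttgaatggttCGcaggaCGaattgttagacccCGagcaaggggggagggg
Zeb2: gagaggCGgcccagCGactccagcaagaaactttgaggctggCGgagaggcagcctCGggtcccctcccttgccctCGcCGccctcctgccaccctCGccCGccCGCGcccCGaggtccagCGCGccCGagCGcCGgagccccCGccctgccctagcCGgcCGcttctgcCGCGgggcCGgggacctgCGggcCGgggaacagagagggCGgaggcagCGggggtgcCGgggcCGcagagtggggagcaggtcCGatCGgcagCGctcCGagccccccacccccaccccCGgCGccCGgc
These stretches held 8 CG dinucleotides at *Snai2*, 12 at *Vim*, 25 at *Twist1* and 35 at *Zeb2*. The poorest of them, *Snai2*, had the highest pileup of the 4 genes. The stretches were placed differently and the pileups are of different lines, so no relation between CG content and pileup is read from this.

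Of the epithelial genes, *Cdh1* (E-cadherin, chromosome 8, 109127251 to 109194146) had no peak in its body or within 10 kb in any line. The nearest peak to its start lay 79.7 kb away in HIGH, 80.0 kb in ON and 79.8 kb in OFF cells, in each case at the start of the neighbouring gene *Tmco7*. That neighbour had a pileup of 76 (rank 69.2) in HIGH, 43 (rank 15.0) in ON and 28 (rank 1.31) in OFF cells. These peaks lay 12.8 to 13.1 kb past the end of *Cdh1*, outside the counted region. They do not show whether a peak could have been called at *Cdh1* itself. In genes without a start-site peak, the median distance to the nearest peak was 42.7, 118 and 62.8 kb in the same order of lines, so the distance at *Cdh1* was longer than the median in HIGH and OFF cells and shorter in ON cells.

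*Epcam*, which encodes an epithelial adhesion molecule (chromosome 17, 88035319 to 88050446), likewise had no peak in any line. The nearest peak to its start in OFF cells was 22.2 kb away, with a pileup of 30.

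*Esrp1* (chromosome 4, 11259080 to 11313930) encodes a splicing regulator of epithelial cells. It had 1 peak in HIGH cells, at 11248619 to 11249766, with a pileup of 113 (93.1 to 136) and a rank of 85.4. The peak lay 9314 bp past the end of *Esrp1* and overlapped an exon of *Gm16652* beside the start of *Dpy19l4*. It falls in the counted region only by the 10 kb flank, and no peak lay in *Esrp1* itself or at its start in any line. The nearest peak on the other side of the start, 12.3 kb away in the same cells, had a pileup of 47. ON and OFF cells had no peak nearer than 132 kb and 99.0 kb to the start.

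*Cdh2* (chromosome 18, 16747386 to 16967755) had 4 peaks, all in HIGH cells. The start-site peak, 16966752 to 16968266, had a pileup of 117 (96.8 to 140) and a rank of 86.5 (79.9 to 91.1). Its summit lay at -142 bp from the 5′ end of the gene. At 1515 bp it was longer than 98.4% of the peaks of the file. The local background at this peak was 32.4 fragments, against a genome-wide background of 11.8, so its fold enrichment (pileup over local background, each with 1 added) was 3.53. By fold enrichment it ranked above only 44.1% of the peaks, and by q-value above 70.7%.

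The other 3 peaks of *Cdh2* were intronic. The one at 16807493 to 16808405, 159989 bp into the gene, had a pileup of 100 (81.4 to 122) and a fold enrichment of 6.79, which ranked above 92.3% of the peaks by that measure. A pair of peaks near the middle of the gene had pileups of 72 and 33. The intronic peak was thus lower than the start-site peak by pileup and higher by fold enrichment. In ON and OFF cells the nearest peak of any kind to the start of *Cdh2* was 1078 kb and 766 kb away. Peaks on chromosome 18 were fewer than elsewhere in these lines, with 0.614 and 0.686 times the density of the genome, against 0.938 times in HIGH cells, and the part of this in the empty region was not tested.

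*Vim* (chromosome 2, 13495554 to 13504453) had a peak over its first exon in ON and OFF cells and none in HIGH cells. In OFF cells the peak, 13495009 to 13496145, had a pileup of 48 (35.4 to 63.6), a fold enrichment of 3.53 and a rank of 45.4 (17.2 to 68.7). In ON cells it had a pileup of 33 (22.7 to 46.3), a fold enrichment of 2.24 and a rank of 0.621 (0 to 23.2). That is place 9702 of 9821, close to the lowest pileup called, and its −log10 q-value was 2.44. The ON peak lay wholly within the OFF peak, overlapping it by 511 bp, with summits 52 bp apart. In HIGH cells the nearest peak was 29.0 kb away, at the start of *Trdmt1*, with a pileup of 130. Despite its place among the weakest peaks of ON cells, the *Vim* start was the only member site that ON and OFF cells shared.

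The region of *Zeb1*, a zinc-finger E-box repressor (chromosome 18, 5591858 to 5775465), held 4 peaks in HIGH cells and 1 in OFF cells. Its highest start-site peak, 5591392 to 5592151, had a pileup of 52 (38.8 to 68.2) and a rank of 46.8 (24.3 to 64.1). It is also a start-site peak of *Gm10125*, which is transcribed the other way. A second start-site peak, 5592960 to 5593305, had a pileup of 39 and a rank of 24.3. Both are at the middle or in the lower part of the list of HIGH peaks.

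The other *Zeb1* peaks were intronic. One at 5603374 to 5603950, with a pileup of 40, was called in HIGH cells alone. The other was called in 2 lines. It was 5751086 to 5752139 in HIGH cells with a pileup of 45 (32.8 to 60.2), and 5751114 to 5751932 in OFF cells with a pileup of 43 (31.1 to 57.9). The ranks were 36.1 and 34.3, and the 819 bp overlap took in all of the shorter peak and 77.7% of the longer. This was the only non-start site of any member that more than 1 line had, and in OFF cells it was called without a peak at the start.

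*Zeb2*, the paralogue of *Zeb1* (chromosome 2, 44839154 to 44972915), had 4 peaks in HIGH cells and none in the other lines. The start-site peak, 44965009 to 44965755, had a pileup of 51 (38.0 to 67.1), a fold enrichment of 2.99 and a rank of 45.5. It does not lie at the 5′ end of the gene. Its summit was 7724 bp into the gene and its edge was 142 bp from an alternative start at 44965897, and the start of *Gm13476* was within 1 kb of it too. The 3 intronic peaks had pileups of 66, 62 and 44. The first pair exceeded the start-site peak, and by fold enrichment all 3 did, at 5.12, 4.93 and 3.48. In ON and OFF cells the nearest peak to the 5′ end of *Zeb2* was 190 kb away, at the start of *Gtdc1*, which is 56.1 and 56.0 kb past the far end of the gene.

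**Figure D2:**
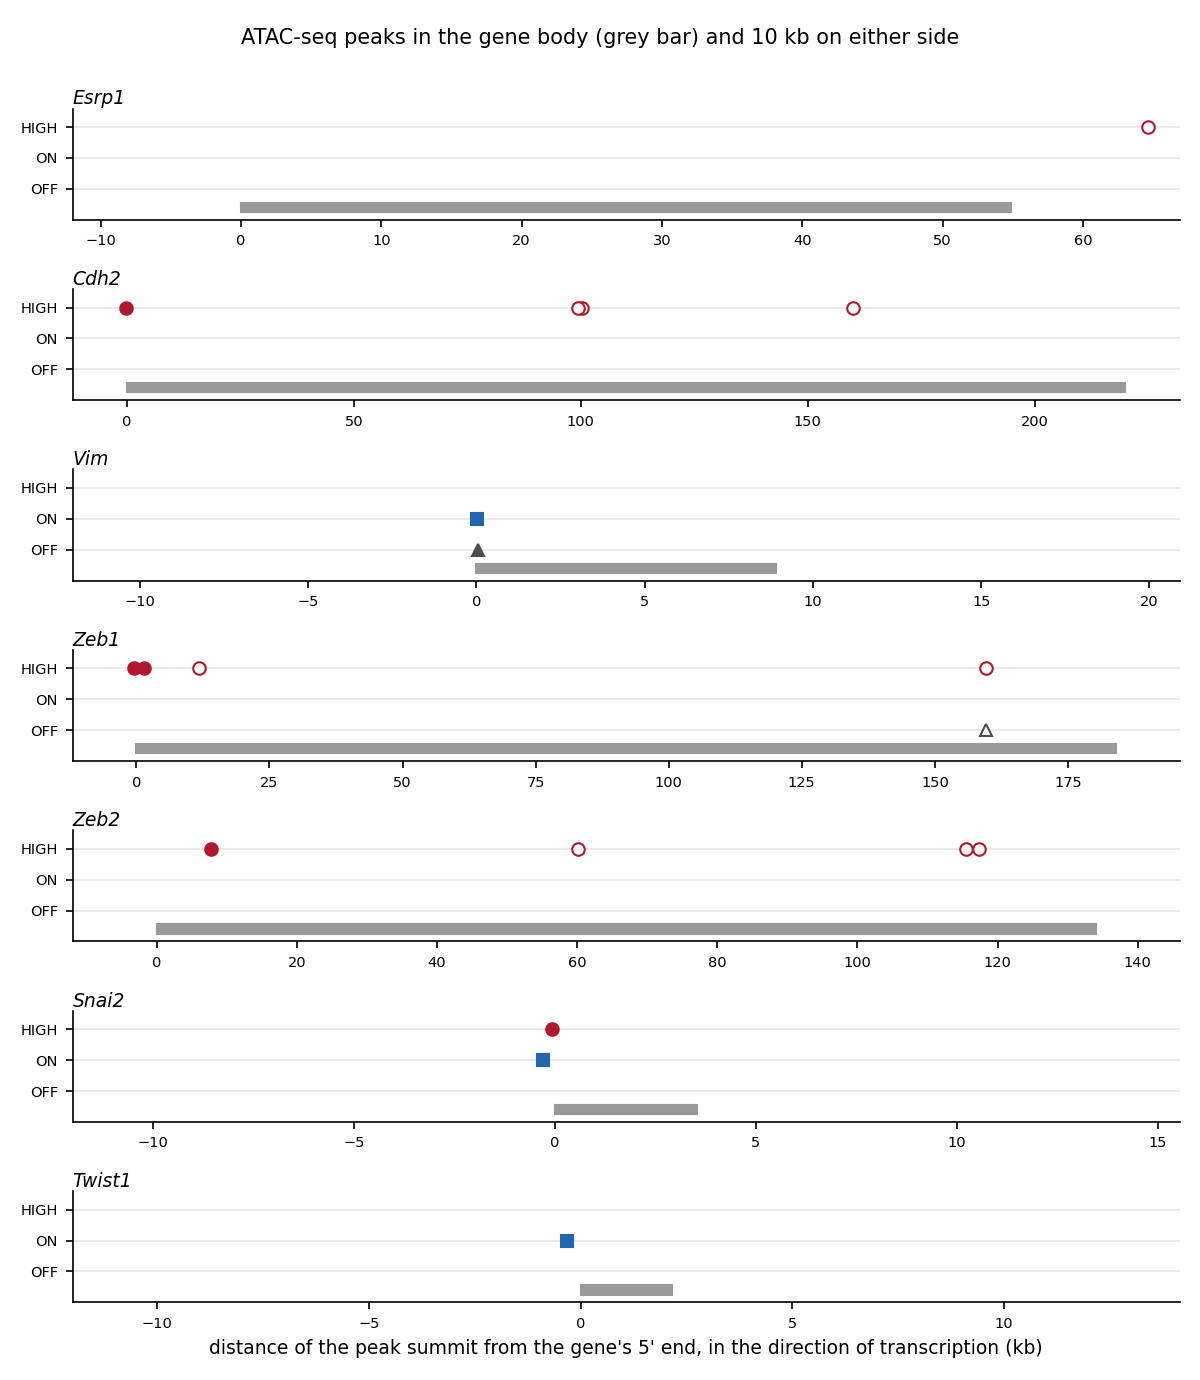
Summit positions of the peaks in the regions of the 7 switch genes that had any, in kb from the 5′ end of the gene along the direction of transcription, with 1 row for each line; grey bars are gene bodies, filled symbols start-site peaks and open symbols other peaks. *Cdh2*, *Zeb1* and *Zeb2* have 4 peaks each in HIGH cells, and *Vim*, *Snai2* and *Twist1* have peaks at the start alone.

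*Snai1* (chromosome 2, 167363695 to 167368314), the gene of the Snail repressor, had no peak in any line. The nearest lay 45.0 kb from its start in HIGH, 116 kb in ON and 34.3 kb in OFF cells, at the starts of *Spata2*, *Slc9a8* and *Rnf114*. Its paralogue *Snai2*, which encodes Slug (chromosome 16, 14705945 to 14709488), differed from it in having the highest start-site peak of all members. In HIGH cells the *Snai2* peak, 14705384 to 14706251, had a pileup of 154 (131 to 180), a fold enrichment of 5.89 and a rank of 93.0 (89.6 to 95.4), which is place 1938 of 28024. In ON cells the peak, 14705575 to 14705954, had a pileup of 61 (46.7 to 78.4), a fold enrichment of 4.09 and a rank of 49.4 (23.2 to 70.4). The shorter ON peak lay within the HIGH peak. Their summits were at -287 and -62 bp from the start, 225 bp apart. OFF cells had no peak within 344 kb of *Snai2*. The limits of the ranks of both lines did not overlap, but the files differ in length and no replicate spread was available to set against this.

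*Twist1* (chromosome 12, 34642536 to 34644682) had 1 peak, in ON cells. The peak, 34642076 to 34642438, ended 98 bp before the start, and it had a pileup of 41 (29.4 to 55.6), a fold enrichment of 2.77 and a rank of 11.4 (0 to 41.1). HIGH cells had their nearest peak 21.3 kb from the start and OFF cells 118 kb from it. With *Vim* at 33 and *Snai2* at 61, every member peak of ON cells was at or below the median pileup of the file, 61.0.

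**Figure D3:**
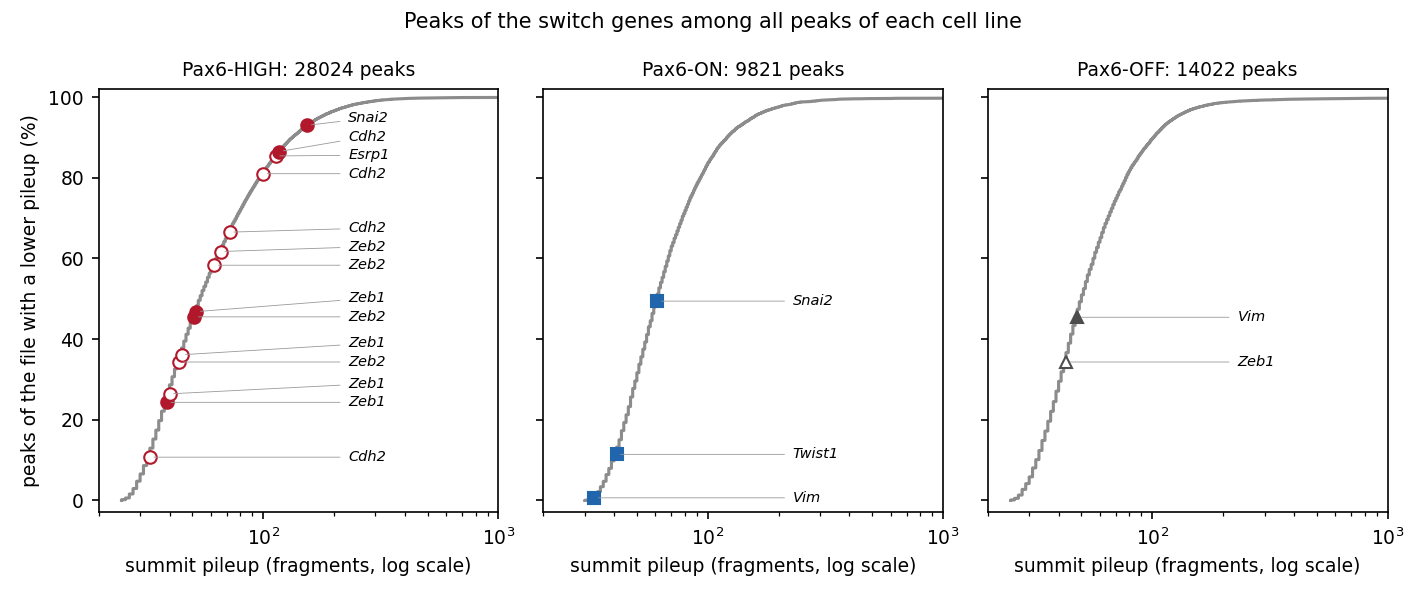
Percent of the peaks of each line with a lower pileup (grey curve) against summit pileup in fragments on a log scale, with the 19 peaks of the switch genes marked (filled symbols start-site peaks, open symbols other peaks). Peaks of HIGH cells run from a *Cdh2* intronic peak at 33 fragments to *Snai2* at 154, and the 3 peaks of ON cells lie between 33 and 61.

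Joined across lines where they overlapped by at least 1 bp, the 19 peaks made 16 sites. Of these, 13 were called in 1 line and 3 in 2 lines, with none in all 3. Of the sites of a single line, 12 were of HIGH cells and 1, the start of *Twist1*, of ON cells. Sites were not joined in this way over all peaks, and HIGH cells had the most peaks. These counts are therefore not read as a trait of the members. The 894 kb of member regions held 15.7 peaks per Mb in HIGH, 3.36 in ON and 2.24 in OFF cells, where the whole genome held 10.2, 3.55 and 5.09. At the density of their own chromosomes the regions would hold 8.94, 2.95 and 3.90 peaks, against the 14, 3 and 2 found. These densities cover whole chromosomes, including stretches far from genes. The density over the regions of all protein-coding genes was not computed, so no excess or lack at the members is read from these values. Of the 14 peaks of HIGH cells, 4 each lay in the regions of the long genes *Cdh2*, *Zeb1* and *Zeb2*.

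The letters under the peaks were searched, over the 300 bases around each summit, for CACCTG on either strand, an E-box that Snail and ZEB factors bind, and for TGANTCA, the AP-1 site, which reads the same on both strands. Neither motif contains the other. CACCTG was present in 5 of the 19 member peaks, and over all peaks in 18.8% for HIGH, 13.3% for ON and 18.8% for OFF cells. Sites called in more than 1 line enter the 19 once for each line. The *Zeb1* intronic site shared by HIGH and OFF cells had 3 matches in each line, so it is counted for both lines among the 5. The start-site peaks of *Cdh2* and *Snai2* in HIGH cells and the *Zeb2* intronic peak with a pileup of 44 had 1 each. TGANTCA was in 0 of the 19, where 12.3%, 28.0% and 14.4% of all peaks had it. A match describes these letters and is not a bound site. The start-site peaks of *Cdh2* and *Zeb2* had a GC content of 79.0%, and the ratio of observed to expected CG dinucleotides at *Cdh2* was 0.876, while the median of all HIGH peaks was 54.0% and 0.360. The *Snai2* peak of the same cells, at 52.7% and 0.579, was closer to that median in GC content.

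Promoter sequence from RefSeq (GRCm38.p6) matched 5 of the 10 genes. The promoters of 2 genes without any peak are shown because they hold the E-box read by the repressors of the list, marked in capitals. They are the 250 bases before the start on the plus strand, for *Epcam* chr17:87635729-87635978 and for *Snai1* chr2:167537945-167538194.
Epcam: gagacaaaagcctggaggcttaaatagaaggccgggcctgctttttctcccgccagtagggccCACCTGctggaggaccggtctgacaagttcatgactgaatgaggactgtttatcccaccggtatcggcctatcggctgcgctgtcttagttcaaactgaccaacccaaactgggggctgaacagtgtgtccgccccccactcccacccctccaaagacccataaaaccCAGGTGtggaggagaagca
Snai1: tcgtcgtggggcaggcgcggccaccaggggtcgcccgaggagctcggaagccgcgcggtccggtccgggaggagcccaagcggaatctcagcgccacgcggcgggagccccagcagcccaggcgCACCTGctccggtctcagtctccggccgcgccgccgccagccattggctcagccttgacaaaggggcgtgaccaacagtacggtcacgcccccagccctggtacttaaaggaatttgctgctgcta
*Epcam* had 2 matches, 1 on each strand, and *Snai1* had 1, while 20.2% of 32851 RefSeq promoters of 300 bases had at least 1. The *Vim*, *Twist1* and *Zeb2* promoters had none. TGANTCA was found in 1 promoter of *Zeb2*, with 2 matches, and in 7.81% of all promoters. In CG dinucleotide ratio the *Snai1* promoter, at 0.925, ranked above 89.2% of all promoters and that of *Twist1*, at 0.827, above 81.3%, so a CG-rich start was called open in no line at *Snai1* and in ON cells at *Twist1*. The *Vim* promoter, at 0.421, was near the median of 0.384.

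The miR-200 family, the microRNA partners of the ZEB genes, has 5 members in 2 clusters, and their mature sequences (RefSeq, 3p arm) are shown with the seed, bases 2 to 8, in capitals.
mmu-miR-200a-3p: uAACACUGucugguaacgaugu
mmu-miR-200b-3p: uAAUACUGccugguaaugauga
mmu-miR-429-3p: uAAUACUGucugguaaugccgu
mmu-miR-200c-3p: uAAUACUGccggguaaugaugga
mmu-miR-141-3p: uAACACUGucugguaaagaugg
The seed AAUACUG was shared by miR-200b, miR-429 and miR-200c, and AACACUG by miR-200a and miR-141. No peak lay within 10 kb of *Mir200a*, *Mir200b* or *Mir429* on chromosome 4 in any line. At *Mir200c* and *Mir141* on chromosome 6, a peak was called in HIGH cells with a pileup of 123 (rank 87.9) and in OFF cells with a pileup of 38 (rank 22.1), and none in ON cells. It lay 6144 bp from the *Mir200c* hairpin in HIGH cells, at the starts of *Emg1* and *Phb2*, so it is a peak of these neighbours as much as of the microRNAs.

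Other genes of the switch were counted the same way from a list of 30 epithelial and 30 mesenchymal genes that are not members. Of the epithelial list, 5 genes (16.7%) had a start-site peak in HIGH, 1 (3.33%) in ON and 6 in OFF cells, and 23 (76.7%) had none in any line. Those without one included the tight junction genes *Cldn3*, *Cldn4*, *Cldn7* and *Ocln* and the keratin gene *Krt8*. The tight junction gene *Tjp1* (pileups 61 and 32) and the transcription factor genes *Elf3* (58 and 59) and *Klf4* (115 and 54) had one in HIGH and OFF cells. *Grhl1*, a grainyhead factor of epithelia, had one in all 3 lines, with pileups of 135 in HIGH, 68 in ON and 103 in OFF cells. *Crb3*, a polarity gene, had one in HIGH cells alone (pileup 132, rank 89.7), and *Krt18*, the keratin partner of *Krt8*, in OFF cells alone (pileup 36, rank 17.2), as did the polarity gene *Llgl2* (pileup 40, rank 27.1). *Cdh1*, *Epcam* and *Esrp1* thus shared the commonest pattern of the epithelial list, no start-site peak in any line. It was the commonest pattern of all protein-coding genes too, at 50.0%, so it is not read as a trait of these genes. In each line the list's share with a start-site peak was below that of all genes.

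Of the mesenchymal list, 5 genes (16.7%) had a start-site peak in each of the 3 lines, and 19 (63.3%) had none. Cut to 9821 peaks per line, the counts were 1 in HIGH, 5 in ON and 4 in OFF cells. The share of all genes under this cut was not computed, so nothing is read from the order of these counts. In ON cells the 5 genes were *Acta2*, *Cdh11*, *Fbn1*, *Fn1* and *Tgfbr2*. Of them, all but *Cdh11* had a start-site peak in no other line. *Tgfbr2*, a receptor of TGF-β, had a pileup of 66 (rank 56.7), *Fn1* (fibronectin) and *Fbn1* (fibrillin) 43 each (rank 15.0), and *Acta2* (smooth muscle actin) 34 (rank 1.22). Like *Vim* and *Twist1*, *Fn1*, *Fbn1* and *Acta2* thus ranked low among the peaks of ON cells. The list's share was below that of all genes in each line, as for the epithelial list. *Lgals1* (galectin, pileup 52, rank 52.5) had one in OFF cells alone, and *Mmp2* (a matrix metalloproteinase, pileup 30, rank 4.74) in HIGH cells alone. The E-protein genes *Tcf3* and *Tcf4*, partners of *Twist1*, and *Tgfb2* had one in HIGH and OFF cells.

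**Figure D4:**
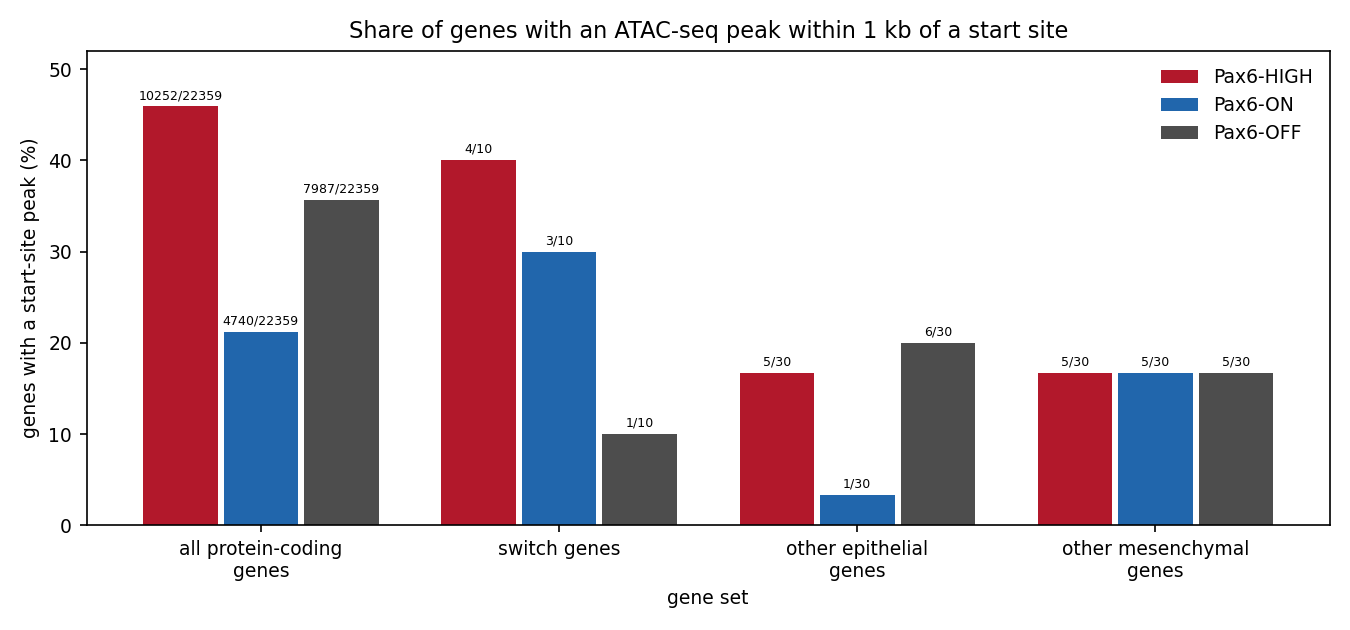
Share of genes with a start-site peak (percent, axis from 0) in each line for all protein-coding genes, the 10 switch genes and the other epithelial and mesenchymal genes, with the counts above the bars. The switch genes have 4, 3 and 1 of 10 and the other mesenchymal genes 5 of 30 in each line. The latter became 1, 5 and 4 with 9821 peaks per line, where the share of all genes was not computed.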

How the data were processed

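ATAC-seq peak tables of Pax6-HIGH, Pax6-ON and Pax6-OFF cells were read. Per the labels and file headers, the authors trimmed 75 bp read pairs (Trim Galore 0.4.1) and aligned them to mm9 (Bowtie2 2.2.6). They ran MACS2 2.1.1 (q-value 0.05) on 2 pooled alignments per line, with no control, no Tn5 shift and a setting that removes no duplicates. The names of the alignments mention a Picard step, so whether duplicates had been removed before the call is unclear. Unshifted fragments can widen peaks, and any duplicates that remained raise pileups. The deposited pileup is a signal in fragments, not scaled for depth. The fold enrichment in the deposited tables is a ratio, of pileup to the larger of the genome-wide and the 6250 bp local background, each with a pseudocount of 1. The authors' p-values and q-values are deposited as −log10 values. The deposited narrowPeak files held the same peaks.

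NCBIM37, which is mm9 under another name, served as reference, with GENCODE M1 annotation. Peaks were assigned by at least 1 bp of overlap, and ranks, Poisson limits and motif counts were computed in Python 3.11.15 with pandas 2.3.3, NumPy 2.4.6 and SciPy 1.17.1. Overlap counting was tested on simulated data. Named by rule were the members with their highest peak outside a start in each line, listed genes with a start-site peak in exactly 1 line, and the miR-200 family. Other genes and peaks were named after their values were seen. The members and lists were chosen with earlier results of these data known. Alternatives were a q-value below 0.001, 9821 peaks per line, other start windows, flanks and overlaps, other start definitions, and other ranks. Values of some neighbouring and listed genes are not reported here. RNA and the other assays of the study were not analysed here.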

Additional observations from a re-analysis of the deposited data

How the results depend on the processing

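Of 75 alternative counts, 63 moved by at most 1.5 times. Cut to an equal number of 9821 peaks per line, the members with a start-site peak in HIGH cells fell from 4 to 2 (*Cdh2* and *Snai2* kept theirs), below the 3 of ON cells, their other peaks in these cells from 9 to 4 and the sites from 16 to 9. The same cut left 3 other epithelial genes and 1 other mesenchymal gene, *Tcf4*, in HIGH cells, and its effect on the share of all genes was not computed. With 20 kb on either side, the other peaks rose to 1 in ON and 2 in OFF cells. Requiring an overlap of 50% of both peaks left 1 shared site of 3. A start window of 2 kb gave 2 other epithelial genes in ON cells. The start-site peaks above the median of their file went from 2 members to 1 in HIGH and from 0 to 1 in ON cells by fold enrichment, and to 1 in ON cells by q-value. The weak *Vim* peak of ON cells was lost at a q-value below 0.001, leaving 2 members, and the *Zeb2* peak was lost with the 5′ end of the gene as the only start, leaving 3 in HIGH cells. Apart from the cut to fewer peaks and the wider windows, whose construction changes the counts, the cause was not tested.

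No paired analysis was possible because both replicates of a line were pooled in 1 call, and for the same reason no replicate could be left out. A site under about 25 to 30 fragments was not called, and ON cells, with the most fragments, had the fewest peaks. Absence of a peak is limited by this floor.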

Other observations

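The gene families behind the switch markers were counted after their values were seen. Of 23 cadherin genes, 7 (30.4%) had a start-site peak in HIGH, 3 (13.0%) in ON and 1 (4.35%) in OFF cells. *Cdh18* had the highest, with pileups of 168 in HIGH and 190 in ON cells, ranks of 94.4 and 97.2. The only cadherin of OFF cells was *Cdh16*, known as kidney-specific cadherin, with a pileup of 43, and it had no start-site peak in the other lines. Of 27 claudin genes, which encode tight junction proteins, 3, 1 and 2 had one in the same order of lines, and *Cldn25* was the only one in all 3. Of 46 keratin genes, 0 had one in HIGH or ON cells and 3 (*Krt18*, *Krt79* and *Krt80*) in OFF cells, with pileups of 36, 39 and 49. All these shares were below those of all protein-coding genes, 45.9%, 21.2% and 35.7%. With 1 pooled call per line, these differences were not tested.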
